A study of Mus musculus with 45 samples.

Results

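Inguinal fat of over-nourished mouse pups (LON) was compared with that of Control pups at day 5 of life, on 3 arrays of each group out of the 45 arrays of the series. The 6 arrays were chosen by their titles alone, and no measured value entered the choice. All mice were male C57BL/6J, with no engineered allele named, and pups of every group were still suckling at this age. A Control litter held 8 pups, whose dam ate a breeder diet at will (5015, 22 kcal% fat). A LON litter held 4 pups, whose dam ate a high fat diet at will (12331, 58 kcal% fat). Under-nourished pups (LUN), shown for their levels, came from litters of 8 whose dam was given 50% of the Control ration. Each group is 1 pool of RNA from 12 mice, measured on 3 arrays of the Applied Biosystems mouse genome survey type. The spread between the 3 arrays is therefore array error, and the p-values carry no variation between mice or litters. The later ages of the series (days 10, 21, 56 and 112) were used to find differences that LON arrays share at every age. After weaning, mice of every group, Control included, ate the same diets. These were a low fat chow up to day 56 and then the high fat diet 12331 up to day 112.

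Inguinal fat is the main subcutaneous depot of the mouse, lying between the skin and the muscle of the hind limb, with a lymph node inside it. In the days after birth its adipocytes fill with triacylglycerol. The fatty acids come from milk lipid or from de novo lipogenesis, in which citrate leaves the mitochondrion, is split to acetyl-CoA, and is built into fatty acids that are then desaturated and esterified. The depot also holds preadipocytes, macrophages, blood vessels and nerves, and it can carry adhering skin, muscle or, in females, mammary epithelium. In a pool of whole tissue, fewer cells of a type and less RNA per cell cannot be told apart.

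The median raw signal of the 9 arrays of day 5 lay between 705.5 and 1459 intensity units. Pearson correlations of the normalised log2 signal across probes were 0.909 to 0.921 between Control arrays, 0.950 to 0.966 between LON arrays and 0.913 to 0.935 between a Control and a LON array. The LUN arrays were less alike (0.840 to 0.946), with array 3 apart from the other two. As a check of the tissue, Fabp4, the fatty acid binding protein of adipocytes, had log2 signals of 20.06, 20.42 and 19.81 in the Control arrays and 19.60, 19.79 and 19.95 in the LON arrays. These levels are near the top of the scale in both groups, and the groups overlap.

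Of 13840 genes, each taken at its brightest probe, 229 were higher in LON (1.65%) and 106 were lower (0.766%) at an adjusted p under 0.05 in limma, in a fit of all 45 arrays adjusted over 33012 probes. By probe, 351 were higher and 232 lower, and the median log2 difference was 0.02 over all probes and 0.09 over all genes. Apart from the genes that differed at all ages, described below, the largest increases with signals above the median probe were in keratinocyte and hair genes (Lor, Krtap19-5, Krtap19-3, Perp, Krt5) and in Scd1, the stearoyl-CoA desaturase. Among the largest decreases were S100a9, S100a8 and Retnlg, products of neutrophils. Higher calls were 60.2% of called probes, but 86.2% under median scaling, which moves the median of all genes up by 0.24, and 50.1% under cyclic loess. Each LON array also weighed on the counts: without 1 of them, the higher calls numbered 206 to 225 and the lower calls 102 to 147. In a fit of the 6 arrays alone the counts were 131 and 11, with 8 called members in the skin list described below, 3 in lipogenesis, 2 in the neutrophil list, 1 in sterol synthesis, and 0 in fatty acid oxidation, the respiratory chain and the cytosolic ribosomal proteins. With the 15 pools as the replicates instead of the arrays, 23 probes were called, all higher, and 22 of these differed in LON at every age.

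**Figure D1:**
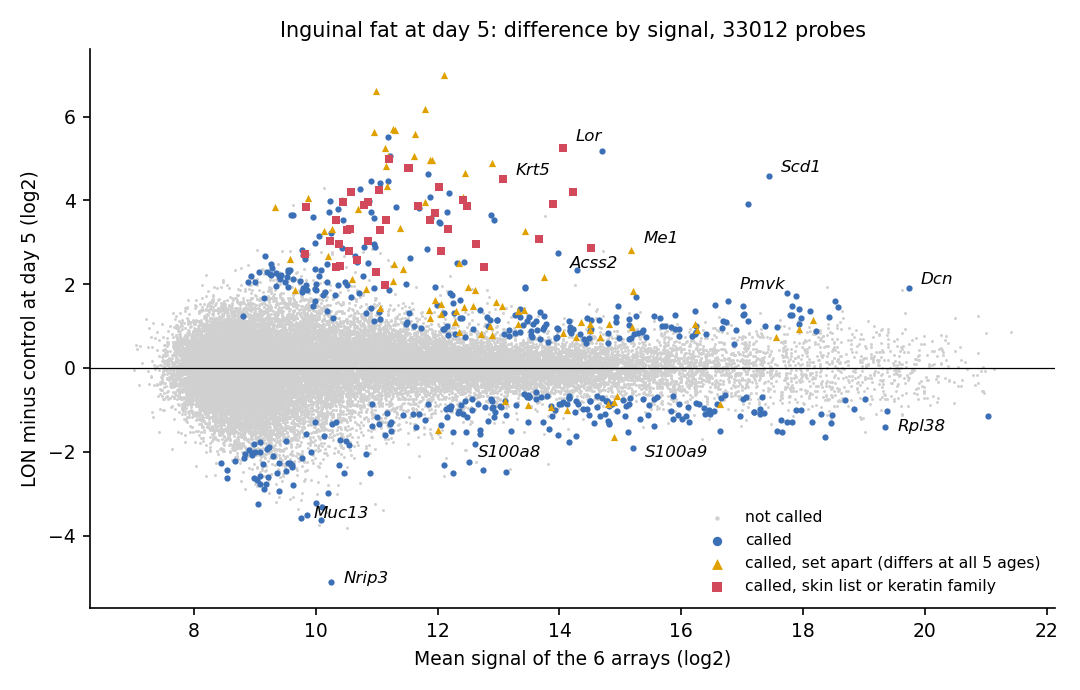
Difference between LON and Control at day 5 (log2, vertical axis) against the mean log2 signal of the 6 arrays (horizontal axis), 1 point per probe. Coloured points passed the adjusted threshold (351 higher, 232 lower): yellow triangles differed in LON at all 5 ages, and red squares, which all lie in the upper part, are members of the skin list or of the keratin, keratin-associated, late cornified envelope and small proline-rich families.

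The LON arrays carry numbers from 1 to 15 over all ages, unlike the other arrays, and in the deposited normalised values they share one distribution of signal while the other 30 share another. A difference between sets of arrays and an effect of LON cannot be told apart where they run the same way at all ages. Probes with an unadjusted p under 0.05 in the same direction at all 5 ages were therefore set apart. There were 126 of them, 96 higher and 30 lower, of which 68 carried a single gene symbol. At day 5, 71 of them were among the 351 higher calls and 10 among the 232 lower calls, which left 280 probes higher and 222 lower. By gene, 195 of the 229 higher and 100 of the 106 lower were left.

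The differences that were set apart included the sharpest ones on the arrays. For Dgke, a diacylglycerol kinase, the log2 signals were 8.51, 8.61 and 8.38 in Control against 13.85, 13.80 and 13.63 in LON. The LON minus Control difference of Dgke was 5.26 at day 5 and 5.25, 6.04, 5.51 and 5.37 at days 10, 21, 56 and 112. Plcg1, a phospholipase C, behaved alike, with differences of 5.06, 4.97, 5.04, 4.84 and 5.43 over the 5 ages. So did Olfr1238, an odorant receptor, with 5.70 at day 5 and 4.83 to 6.06 at the later ages. In 31 of the 126 probes all 15 LON arrays lay above all of the other 30, and separation downward was not counted. Jak1, a cytokine receptor kinase, differed by 3.97 at day 5 and by 2.16 to 3.32 later. Metabolic and antioxidant enzymes were also in this set, among them Me1, Pdha1, Hadha and Cat, and are marked as such below.

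Of the lists examined, that of skin and mammary epithelium had the largest median increase. In skin, basal keratinocytes carry the keratins Krt5 and Krt14, the outer layers cross-link loricrin (Lor) and late cornified envelope proteins into the cell envelope, and hair cells fill with keratin-associated proteins. Of 24 measured markers of skin and mammary epithelium, 10 rose in LON and 0 fell, with 20 of 24 differences above 0 and a median log2 difference of 1.59, beside 0.09 over all genes. The counts of this and of the later lists stand beside 1.65% of all genes called higher and 0.766% called lower.

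The log2 signals of Lor were 11.36, 11.47 and 11.46 in Control, 16.28, 16.52 and 17.26 in LON and 8.27, 7.98 and 8.58 in LUN. The 3 diets did not overlap, with LON at the top and LUN at the bottom. The increase of Lor in LON over Control was 5.26 (SE 0.35, 38.3-fold, limma adjusted p = 3.15e-12). Krt5 went from 11.36, 10.33 and 10.81 in Control to 15.32, 15.28 and 15.40 in LON, an increase of 4.50 on the log2 scale (SE 0.44, adjusted p = 1.28e-08). Krt14, its partner in basal cells, rose by 3.08 (adjusted p = 0.000682). Krt15, a keratin of the follicle bulge, had signals of 8.26, 8.83 and 8.34 in Control and 12.51, 12.62 and 12.91 in LON. Perp, a desmosome protein of stratified epithelia, stood at 9.90, 8.88 and 8.69 in Control and at 13.73, 13.86 and 14.16 in LON. Both were dim in Control and well separated upward in LON, with increases of 4.21 for Krt15 (adjusted p = 1.04e-07) and 4.76 for Perp (adjusted p = 4.18e-09).

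Gene families were picked by symbol after these values had been seen, so their counts are descriptive. Of 32 keratin genes 14 rose and 0 fell (median 1.29), and of 28 keratin-associated genes 16 rose and 0 fell (median 2.57). Of 13 late cornified envelope genes 6 rose (median 2.87), and of 13 small proline-rich genes 1 did (median 0.33). Krtap19-5 of the hair shaft went from 9.13, 8.57 and 8.48 in Control to 13.71, 13.62 and 13.79 in LON (difference 4.98, SE 0.48, adjusted p = 1.12e-08). Krt25, a keratin of the inner root sheath, went from 11.95, 11.94 and 12.48 to 16.06, 16.57 and 16.31. The increase of Krt25 was 4.19, and those of Krtap19-3, Krtap16-3, Krtap15 and Krtap19-2 were 4.77, 4.42, 4.31 and 4.24. Another probe of Krtap16-3 differed by 1.32. Prr9, a proline-rich protein of the skin, rose by 4.46. Melanocyte genes, also picked after their values were seen, moved with them: Tyrp1 by 3.66 (adjusted p = 0.00159), Pmel by 2.50 (adjusted p = 0.00491) and Dct by 2.20 (adjusted p = 0.00964).

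The summed linear signal of the 24 epithelial markers, given as its log2, was 15.74 to 16.28 in Control, 18.21 to 18.48 in LON and 15.18 to 15.85 in LUN, so that the LON arrays lay above all others of day 5. No marker has a true zero on these arrays. Not all epithelial genes moved: the differences of Trp63, the transcription factor of basal cells, and of the desmosomal Dsc3 were −0.14 and −0.02. Genes of simple and mammary epithelium were not called either, with differences of 1.06 for Krt8, 0.28 for Krt18 and −0.26 for the milk casein Csn2. The part of adhering skin in the other differences between LON and Control was not tested.

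**Figure D2:**
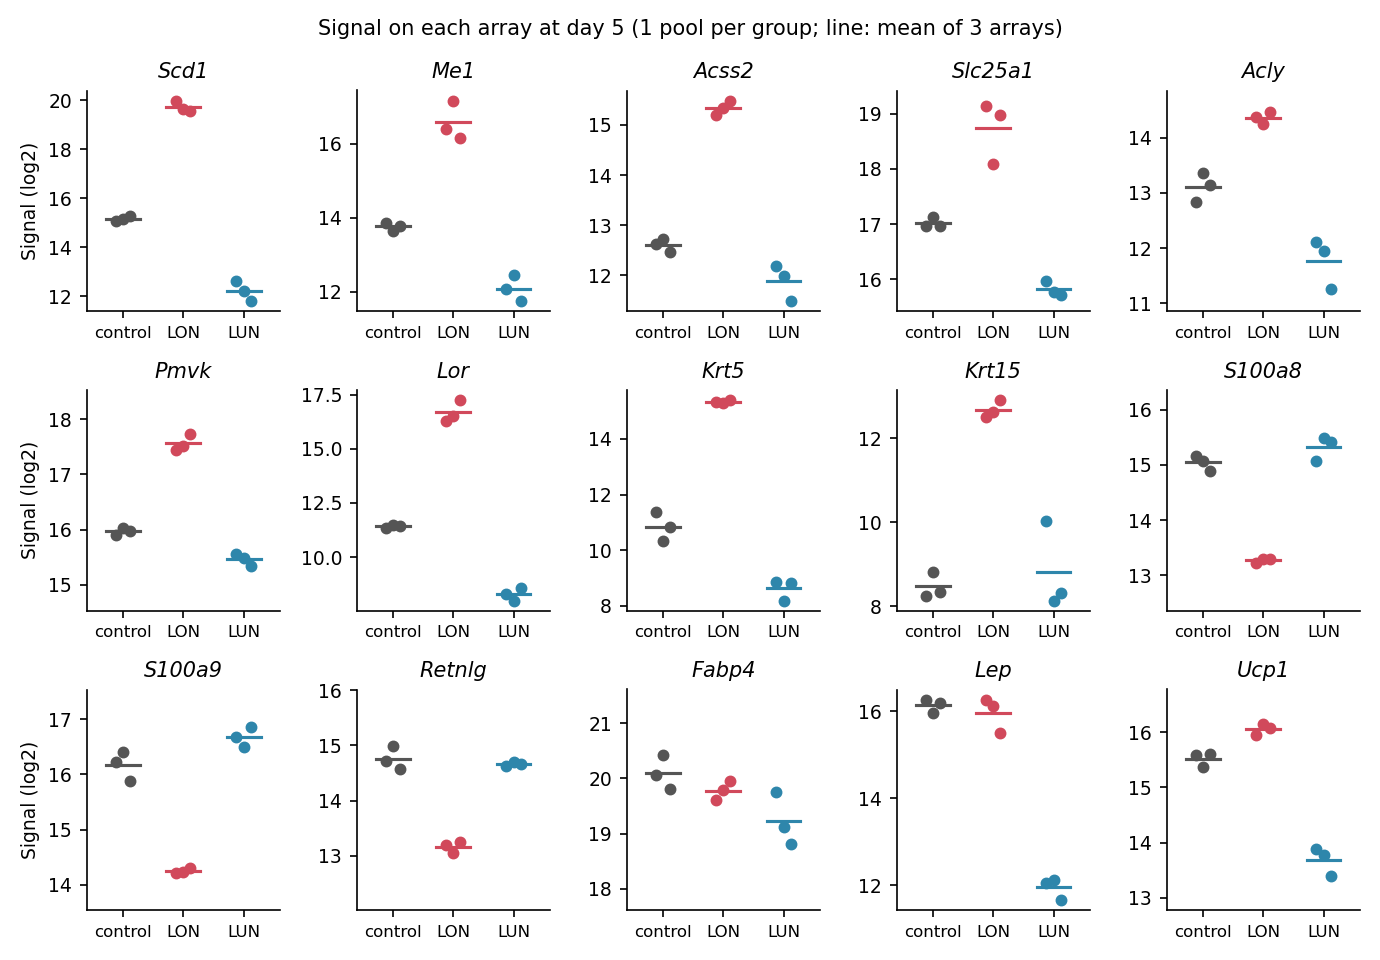
Normalised log2 signal of 15 genes on each array of day 5, with Control, LON and LUN side by side; each point is 1 array of the group's pool and each line the mean of its 3 arrays. Scd1, Me1, Acss2, Lor, Krt5 and Krt15 are separated upward in LON, S100a8, S100a9 and Retnlg are separated downward, and Fabp4 and Lep overlap between LON and Control.

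Enzymes of fatty acid synthesis were higher in LON. Of 17 measured genes of lipogenesis 5 rose (Scd1, Me1, Acss2, Slc25a1 and Acly) and 0 fell, or 4 without Me1, which was set apart. The difference was above 0 in 17 of 17, from 0.10 to 4.58 on the log2 scale, with a median of 0.79. These enzymes act at different points of the pathway. Slc25a1 carries citrate out of the mitochondrion, and Acly splits it to acetyl-CoA. Acss2 makes acetyl-CoA from acetate instead, Me1 supplies NADPH, and Scd1 places the double bond in stearate.

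Promoters of 3 of these genes are printed because they hold a letter pattern searched for, and the genes changed in the same direction. The windows are RefSeq sequence of GRCm38.p6, 300 bases around the annotated start, in the direction of transcription, with the match in capitals. Acss2 (chr2:155517793-155518092, plus strand) and Me1 (chr9:86695865-86696164, minus strand) hold TGACNNNGC, the core of the antioxidant response element, and Slc25a1 (chr16:17928170-17928469, minus strand) holds the E-box CACGTG.
Acss2: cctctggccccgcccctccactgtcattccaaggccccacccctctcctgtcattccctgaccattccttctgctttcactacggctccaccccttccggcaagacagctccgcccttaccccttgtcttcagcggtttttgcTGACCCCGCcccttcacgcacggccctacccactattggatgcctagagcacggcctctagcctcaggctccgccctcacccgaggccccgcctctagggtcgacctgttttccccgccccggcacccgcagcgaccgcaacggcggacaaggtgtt
Me1: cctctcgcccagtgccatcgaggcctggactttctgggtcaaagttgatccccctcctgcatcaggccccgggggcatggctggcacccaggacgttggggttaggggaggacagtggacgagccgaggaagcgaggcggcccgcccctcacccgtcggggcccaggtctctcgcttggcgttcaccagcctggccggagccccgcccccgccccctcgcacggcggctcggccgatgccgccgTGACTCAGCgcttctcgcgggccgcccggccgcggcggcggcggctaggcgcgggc
Slc25a1: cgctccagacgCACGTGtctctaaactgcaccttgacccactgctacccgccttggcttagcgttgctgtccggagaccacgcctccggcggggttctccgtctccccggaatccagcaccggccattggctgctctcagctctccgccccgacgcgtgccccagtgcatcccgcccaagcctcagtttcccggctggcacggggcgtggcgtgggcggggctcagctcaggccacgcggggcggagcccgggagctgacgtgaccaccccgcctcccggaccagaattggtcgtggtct
Of the 9 called genes of lipogenesis and sterol synthesis, 8 had windows, 10 in all, searched on both strands. TGACNNNGC was in 30% of them (Acss2, Me1 and Pmvk), beside 12.4% of all 32851 promoter windows, and CACGTG in 10%, beside 7.15%. The sterol response element TCACNCCAC and the amino acid response pattern TGATGNAAT were in none of the 10, beside 1.24% and 0.965% of all windows. Over the 33 windows of all measured genes of both lists, called or not, TGACNNNGC was in 15.2%, CACGTG in 21.2%, TCACNCCAC in 6.06% (Hmgcs1 and Mlxipl) and TGATGNAAT in none. A match is a run of letters and not a binding site.

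The log2 signals of Scd1 were 15.07, 15.13 and 15.26 in Control, 19.99, 19.63 and 19.58 in LON and 12.61, 12.21 and 11.80 in LUN. The 3 diets were fully separated, with Control between the others. Scd1 was 23.9-fold higher in LON than in Control (log2 difference 4.58, SE 0.71, adjusted p = 0.000115). Acss2, whose promoter is printed above, had signals of 12.62, 12.73 and 12.46 in Control, 15.20, 15.35 and 15.49 in LON and 12.18, 11.99 and 11.48 in LUN. Its increase in LON was 2.74 (SE 0.20, 6.69-fold, adjusted p = 2.42e-11). Me1 had 13.87, 13.65 and 13.78 in Control against 16.41, 17.18 and 16.17 in LON. The increase of Me1 was 2.82 (SE 0.23, adjusted p = 3.37e-10) with no overlap, and it was also higher in LON at each later age (0.60, 1.45, 0.84 and 1.92).

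Slc25a1, the citrate carrier, had 16.96, 17.13 and 16.97 in Control and 19.13, 18.09 and 18.98 in LON, an increase of 1.71 (SE 0.35, adjusted p = 0.00448). Acly had 12.84, 13.35 and 13.15 in Control and 14.37, 14.26 and 14.46 in LON, an increase of 1.25 (SE 0.22, adjusted p = 0.000706). In both genes every LON array lay above every Control array. Fatty acid synthase itself did not pass the test: Fasn had 19.01, 19.20 and 18.30 in Control and 19.77, 20.25 and 19.26 in LON, a difference of 0.93 (SE 0.71, adjusted p = 0.738). The same was true of Scd2 (1.92, adjusted p = 0.178), of the elongase Elovl6 (0.77) and of the regulator Srebf1 (0.46).

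Sterol synthesis moved in the same direction by less. Of 15 measured genes 4 rose and 0 fell, 14 differences were above 0, and the median was 0.66. Pmvk, the phosphomevalonate kinase, had log2 signals of 15.90, 16.03 and 15.98 in Control, 17.44, 17.51 and 17.73 in LON and 15.57, 15.49 and 15.33 in LUN. It was 3.02-fold higher in LON (log2 difference 1.59, SE 0.17, adjusted p = 1.4e-07), with LUN below Control. The demethylase Cyp51 rose by 1.21 (adjusted p = 0.00407), Msmo1 by 1.03 (adjusted p = 0.000287) and the isomerase Idi1 by 0.73 (adjusted p = 0.0382).

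Of 15 genes of triacylglycerol synthesis 1 rose. This was Dgat1, which adds the last acyl chain, with 16.04, 16.69 and 16.44 in Control and 17.63, 17.91 and 17.44 in LON (difference 1.27, SE 0.22, adjusted p = 0.000463). Of 16 genes of the lipid droplet and lipolysis, Fitm2, a protein of droplet formation, was the 1 that rose (1.11, adjusted p = 0.0166). None of 14 genes of fatty acid uptake and binding passed the limma test (median 0.20), and 3 were higher at an unadjusted p under 0.05.

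**Figure D3:**
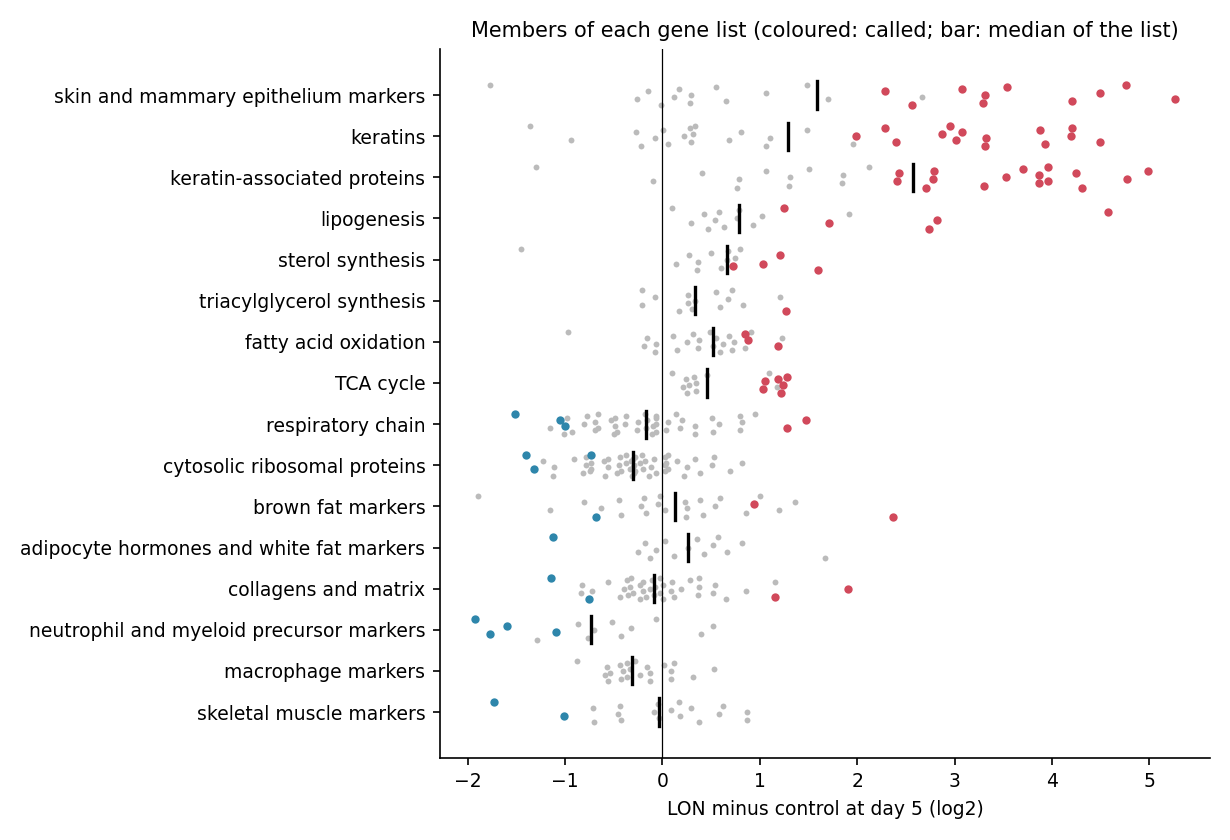
LON minus Control difference at day 5 (log2, horizontal axis) for the measured members of 16 gene lists (vertical axis), 1 point per gene; coloured points passed the adjusted threshold and each bar is the median of the list. The skin list has a median of 1.59, lipogenesis 0.79 and neutrophil markers −0.74.

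Part of the TCA cycle list rose as well, a list that also holds cytosolic enzymes and others linked to the cycle. Of 17 measured genes 6 were higher and 0 lower, all 17 differences were above 0, and the median was 0.46. Idh1, the cytosolic isocitrate dehydrogenase, had 14.97, 15.09 and 14.72 in Control, 16.05, 16.18 and 16.28 in LON and 13.58, 13.69 and 13.39 in LUN, an increase of 1.24 over Control (SE 0.20, adjusted p = 0.000202). The diets did not overlap. Mdh1, the cytosolic malate dehydrogenase, rose by 1.22 (adjusted p = 0.00181). Dlst, Pcx and Pdha1 rose by 1.19, 1.04 and 1.05, of which Pdha1 was set apart. Sdha, of complex II, was called at 1.28 (adjusted p = 0.0364), although its arrays overlapped (16.03, 16.22 and 16.92 in Control, 17.83, 18.50 and 16.68 in LON). It passed the test in 2 of the 6 fits that each left out 1 array. In a fit of the 6 arrays alone none of the 17 genes was called.

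Most genes of fatty acid oxidation lay above 0 with few calls, while those of the respiratory chain were called in both directions. Of 25 genes of fatty acid oxidation 20 were above 0, 3 rose and 0 fell, and the median was 0.52. Those that rose were the peroxisomal Hsd17b4 (1.19), the carnitine carrier Slc25a20 (0.88) and Hadha (0.85, set apart). Slc25a20 lost its call whichever array was left out. Of 47 respiratory chain genes 16 were above 0, 2 rose and 3 fell (median −0.17). Ndufa9 of complex I had 17.37, 16.90 and 16.99 in Control and 18.44, 18.27 and 18.97 in LON, an increase of 1.48 (adjusted p = 0.000248). Ndufa5 of the same complex had 17.07, 17.34 and 17.76 in Control and 15.82, 15.95 and 15.85 in LON, a difference of −1.51 (adjusted p = 0.00276). Subunits of 1 complex thus moved in opposite directions, with no overlap in either. Ndufa6 and Ndufa1 fell, with differences of −1.05 and −0.999.

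Cytosolic ribosomal proteins had a median difference of −0.30, and 3 of 55 were called lower. Rpl38 had 20.24, 20.14 and 19.76 in Control and 18.18, 18.74 and 18.997 in LON (difference −1.40, adjusted p = 0.00102), Rps28 differed by −1.32 (adjusted p = 0.0011) and Rps15 by −0.73. These calls were lost under median scaling. Of 65 mitochondrial ribosomal proteins 1 fell, Mrpl52, with a difference of −1.11 and a median of −0.11 over the 65.

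Markers of brown adipocytes were called in both directions. Of 26 measured, 2 rose and 1 fell, beside 1.65% and 0.766% of all genes, and 14 were above 0, with a median of 0.13. Their summed linear signal, as log2, was 19.43 to 19.64 in Control, 18.97 to 19.13 in LON and 19.04 to 19.12 in LUN, so that Control lay above both diets. The bright Cox8b, a respiratory subunit of brown fat, had 18.70, 18.28 and 18.28 in Control and 17.08, 17.21 and 17.50 in LON, a difference of −1.15 that did not pass the test. Ucp1, the uncoupling protein of brown fat, had log2 signals of 15.58, 15.36 and 15.61 in Control, 15.95, 16.15 and 16.07 in LON and 13.88, 13.77 and 13.40 in LUN. The LON arrays lay above the Control arrays by 0.54, which did not pass the test (SE 0.22, adjusted p = 0.306), while the LUN arrays lay below Control by more (−1.84, adjusted p = 3.38e-06). The elongase Elovl3 was called at 2.37 (adjusted p = 0.0288) and the proton channel Otop1 at 0.94 (adjusted p = 0.0474), and leaving out 1 array ended both calls in 6 of 6 and 5 of 6 fits. Pdk4, the kinase that shuts pyruvate dehydrogenase, had 16.12, 16.19 and 16.32 in Control and 15.51, 15.40 and 15.68 in LON (difference −0.68, adjusted p = 0.0347). At day 10 Pdk4 was higher in LON by 1.68, and its call at day 5 was lost whichever array was left out.

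Few white fat genes and hormones were called. Of 15 measured, 0 rose and 1 fell, with a median of 0.27 and differences from −1.13 to 1.67. Leptin (Lep) had 16.26, 15.96 and 16.18 in Control, 16.26, 16.11 and 15.49 in LON and 12.06, 12.12 and 11.65 in LUN. LON and Control overlapped (difference −0.18, adjusted p = 0.94), while LUN lay far below both (−4.19 against Control). Neuronatin (Nnat), an imprinted gene of differentiating adipocytes, had 19.11, 19.21 and 18.80 in Control and 17.81, 17.98 and 17.95 in LON (difference −1.13, adjusted p = 0.0247), a call that held in 1 of the 6 fits without 1 array. A list of genes that the study names, which left out most of its mitochondrial genes, had 24 measured members. Of these, Scd1 was the 1 that was called. Slc25a20, which the study also names but the list left out, was called as described above. Gpd1 differed by 1.20 (adjusted p = 0.33), Rb1 by 1.54 (adjusted p = 0.285), Mest by 0.67 (adjusted p = 0.15) and Pparg by 0.52, and none of these passed the test. The median over the 24 was 0.39.

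Other changes were scattered over several lists. Txnrd1 and Sod3 of the antioxidant response rose by 2.01 (adjusted p = 0.0206) and 1.40 (adjusted p = 0.000109), and catalase (Cat), which was set apart, by 1.04. The imprinted gene Impact, with 8.65, 8.75 and 9.46 in Control and 11.46, 11.41 and 11.41 in LON, rose by 2.47 (adjusted p = 0.00148). Decorin (Dcn), a matrix proteoglycan of fibroblasts, was called at 1.91 (adjusted p = 0.0421), with Control arrays spread over 18.89, 19.999 and 17.45 and LON arrays at 20.74, 20.33 and 21.01. Of 41 matrix genes Dcn and Col5a2 (1.15, set apart) rose, and Col1a2 and Col16a1 fell, with differences of −1.14 and −0.75. The calls of Dcn, Col1a2 and Cat each held in 1 of the 6 fits without 1 array, and that of Txnrd1 in 3. None of 42 cell cycle genes was called in limma, although 35 were above 0 (median 0.33), and 3 increases and 1 decrease had an unadjusted p under 0.05.

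Among the marker lists of other cells, that of neutrophils held the most lower calls. Of 14 markers 4 fell and 0 rose, and 2 differences were above 0, with a median of −0.74. S100a8 and S100a9 form calprotectin, the main cytosolic protein of neutrophils. The log2 signals of S100a9 were 16.23, 16.40 and 15.88 in Control, 14.21, 14.23 and 14.30 in LON and 16.68, 16.49 and 16.87 in LUN. Those of S100a8 were 15.17, 15.08 and 14.89 in Control, 13.23, 13.28 and 13.30 in LON and 15.07, 15.49 and 15.41 in LUN. In both, the LON arrays were tight and low, while LUN was near Control. S100a9 was 3.79-fold lower in LON (−1.92, SE 0.22, adjusted p = 6.13e-07) and S100a8 3.42-fold lower (−1.77, SE 0.17, adjusted p = 8.29e-09).

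Retnlg, a resistin-like protein of myeloid cells, had 14.73, 14.98 and 14.58 in Control and 13.20, 13.05 and 13.25 in LON (difference −1.59, SE 0.24, adjusted p = 5.17e-05). The granule protease Prtn3 differed by −1.09 (adjusted p = 0.0115). Granule genes Mpo, Elane, Ctsg and Ltf differed by −0.70, 0.52, 0.39 and −0.07 and were not called. The summed log2 signal of the 14 markers was 18.86 to 19.27 in Control, 18.03 to 18.85 in LON and 18.50 to 19.47 in LUN, so that LON lay just below Control and overlapped LUN.

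Other leukocyte lists held no gene called in limma. The median difference was −0.31 over 22 macrophage markers, −0.32 over 14 B and T cell markers and −0.22 over 11 mast cell markers. At an unadjusted p under 0.05, 3 macrophage markers and 4 B and T cell markers were lower and 1 mast cell marker was higher. The summed log2 signal of the B and T cell markers was 18.02 to 18.20 in Control and 17.64 to 17.77 in LON, and that of the macrophage markers 19.73 to 19.78 and 19.28 to 19.53. Genes outside these lists that fell, named after their values were seen apart from Cd52 and Saa3, included the leukocyte antigen Cd52 (−1.23), the acute phase gene Saa3 (−1.52), Retnla (−1.23), the chemokines Ccl8 (−1.07) and Ccl5 (−0.90) and Glycam1 (−1.12), an L-selectin ligand of lymph node vessels. The part of blood cells or of the lymph node in these differences was not tested.

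Of 19 muscle markers, 9 were above 0, 0 rose and 2 fell, Pvalb (−1.73, adjusted p = 0.000266) and Myl1 (−1.01, adjusted p = 0.0241), both of fast fibres, with a median of −0.03. The summed log2 signal was 19.32 to 19.55 in Control and 18.88 to 18.97 in LON. None of 10 erythroid, 17 endothelial or 11 nerve and Schwann cell markers was called in limma, and 1, 1 and 0 were lower at an unadjusted p under 0.05.

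Several of the largest decreases rested on Control arrays that were far from each other. Muc13, a membrane mucin, had 10.64, 12.47 and 11.56 in Control, 8.26, 7.77 and 7.87 in LON and 8.29, 7.34 and 8.14 in LUN. Xpo4, a nuclear exporter, had 15.09, 13.91 and 11.92 in Control and 11.21, 11.15 and 11.85 in LON, so that Control array 3 lay beside LON. LUN was as low as LON for Muc13, so the Control arrays stood apart from both diets. The decrease of Muc13 was −3.59 (SE 0.80, adjusted p = 0.0104), and that of Xpo4 −2.24 (SE 0.53, adjusted p = 0.0183), which held in 2 of the 6 fits without 1 array. Olfr1324 and Nlrp5 were of the same kind (−2.79 and −2.36), and the call of Nlrp5 held in 1 of the 6 fits without 1 array. Of the 106 genes called lower, 11 had a Control SD above 1, with a median LUN minus Control difference of −2.27. Such a spread was not particular to the lower calls, since 1572 of all 13840 genes had a Control SD above 1. The median LUN minus Control difference of those 1572 was −0.46. R3hdm1, Bhlhe41 and Sec62 fell with closer Control arrays, at −1.83, −1.58 and −1.54, and held in 4, 2 and 3 of the 6 fits. Muc13 held in 4 and Olfr1324 in 6 of them.

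How far a difference at day 5 departed from the average of the other ages was tested as the LON minus Control difference at day 5 less its mean at the other 4 ages. In this contrast a shift common to all LON arrays cancels. It called 39 genes higher (0.282%) and 17 lower (0.123%). Among the probes set apart, 1 was called, that of Me1, by 1.62 (adjusted p = 0.000906). Acss2 exceeded the mean of the other ages by 1.86 (adjusted p = 1.94e-05), with age differences of 2.74, 0.73, 2.02, 0.27 and 0.49 from day 5 to day 112. Slc25a1 was higher by 1.90 (adjusted p = 0.0199), and its difference at day 10 was −0.11. Pmvk was higher by 1.37 (adjusted p = 0.000144) and Dgat1 by 1.16 (adjusted p = 0.0229). For Scd1 the contrast did not pass (2.09, adjusted p = 0.483), and LON was above Control by 3.04, 3.58 and 2.66 at days 10, 21 and 112 as well.

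The skin genes were not confined to day 5. The epithelial list had a median difference of 1.18 at day 10 with 8 higher calls, 0.80 at day 21 with 5, and 0.37 and −0.42 at days 56 and 112. The summed log2 signal of the epithelial markers in LON at day 10, 17.27 to 17.36, was again above Control (15.66 to 16.40). Lor differed by 5.90 and 4.75 at days 10 and 21, and by 0.68 and −0.77 later. Keratin-associated genes had a median of 3.40 at day 10 with 19 of 28 higher, while late cornified envelope genes had 0.93 with 0 of 13 higher. Lce1c of that family, with 7.61, 9.47 and 8.64 in Control and 12.07, 12.25 and 11.99 in LON, differed by 3.53 at day 5 and 0.60 at day 10. Its excess over the mean of the other ages was 4.14 (adjusted p = 0.0329).

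The neutrophil genes S100a9, S100a8 and Retnlg were lower at day 5 than the mean of the other ages, with contrast values of −1.41, −1.26 and −1.59. At day 10 their differences were −0.33, −0.47 and −0.22. At day 112, S100a9 and S100a8 were again below Control in LON (−2.33 and −1.51), while Retnlg was at 0.37. Nnat, Cpd, a carboxypeptidase, and Cd52 completed the named decreases of this contrast, at −1.45, −1.34 and −1.32. The values for Pvalb (−2.51) and Myl1 (−1.24) stand beside a muscle list whose median LON minus Control difference was 3.61, −1.42, 4.67 and −4.16 at days 10, 21, 56 and 112, and the part of adhering muscle in them was not tested. The 3 LON arrays of day 5 mattered here too, since without 1 of them the called probes numbered 41 to 46 in place of 94.

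**Figure D4:**
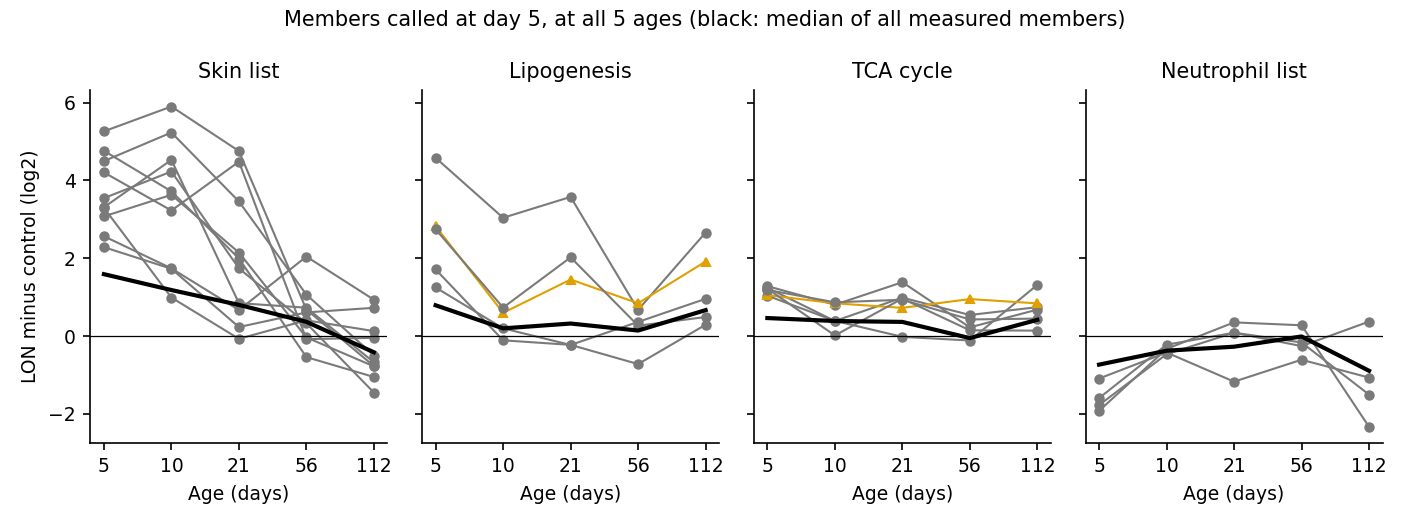
LON minus Control difference (log2, vertical axis) at the 5 ages (horizontal axis, days) for the members called at day 5 in the skin, lipogenesis, TCA cycle and neutrophil lists; each line is 1 gene, yellow triangles mark genes set apart, and the black line is the median of all measured members. The skin median goes from 1.59 at day 5 to −0.42 at day 112, and the lipogenesis median is 0.79 at day 5 and 0.20 at day 10.

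**Figure D5:**
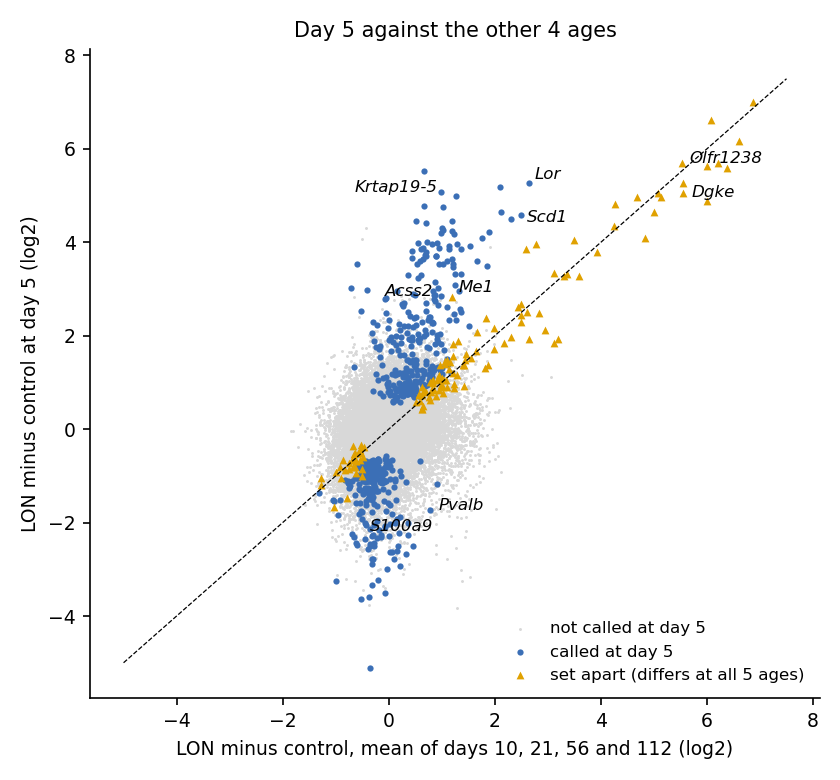
LON minus Control difference at day 5 (log2, vertical axis) against the mean of the difference at the other 4 ages (log2, horizontal axis), 1 point per probe. Points on the dashed line differ equally at day 5 and at the other ages; Dgke and Olfr1238, set apart as yellow triangles, lie near it above 5, while Lor lies above it by 2.62.

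The genes called at day 5 were then read at the other ages. These readings are a description, because the arrays of all ages shared one normalisation and one estimate of the spread, and the p-values of the other ages decided which genes were set apart. Of the 195 genes higher and not set apart, 173 (88.7%) were above 0 at day 10, beside 46% of all genes, with a median of 0.60. Called higher at day 10 were 49 of them (25.1%), beside 0.889% of all genes, while 0.101% of all genes were called lower. Without the skin list and families, 133 of 155 were above 0 at day 10, with 18 called and a median of 0.39. At day 56, when all diets had been the same since weaning, 112 of the 195 (57.4%) were above 0, beside 42.4% of all genes. In LUN pups, going from day 5 to day 10 moved 100 of the 195 upward (51.3%, beside 50.4% of all genes). Of the 100 genes lower and not set apart, 37 were above 0 at day 10, beside 46% of all genes, and 1 was called lower. At day 112, 14 of the 100 were above 0, beside 58.4% of all genes. Again called lower at day 112 were 19 of them, beside 1.13% of all genes.

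Against the under-nourished pups of the same age the LON differences were wider. LON exceeded LUN in 828 genes (5.98%) and fell below it in 382 (2.76%), or in 787 and 377 without the probes set apart. In a fit of only these 2 groups 338 probes were called, in place of 2161. The list counts that follow include members that were set apart. Of 17 lipogenesis genes 13 were higher in LON than in LUN and 0 lower (median 2.50), with Fasn among them (2.50, adjusted p = 0.0252) and Scd1 at 7.53 (adjusted p = 2.34e-09). Sterol synthesis had 12 of 15 higher (median 1.53), the TCA cycle list 9 of 17 and the epithelial list 13 of 24 (median 2.38). LUN minus Control and LON minus Control share the Control arrays. Side by side, the median of lipogenesis was −1.34 in LUN, where 5 genes fell, and 0.79 in LON, where 5 rose; for sterol synthesis it was −0.97 with 6 lower and 0.66 with 4 higher. For neutrophil markers the medians were 0.12 in LUN with 0 called and −0.74 in LON with 4 lower.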

How the data were processed

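The values were made by the authors from digoxigenin-labelled cRNA read by chemiluminescence on 1-colour arrays. Raw intensity was deposited as a positive linear signal, and a second table was deposited as log2 values that the authors had quantile-normalized in Bioconductor. Here the raw intensities of 45 arrays (0 of them at or below 0) went through one quantile normalization and a log2 transform with no offset (correlation with the deposited log2 values 0.9998). A mean for each of 15 groups was fitted in limma 3.58.1 under R 4.3.3 (prior df 2.74), with two-sided tests adjusted by Benjamini-Hochberg over 33012 probes at 0.05. The number of arrays limits the precision, and the fit was tested on simulated data.

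The platform annotation gave 1 symbol for 14411 probes, several for 247 and none for 18354, and 14402 symbols were updated by gene ID through RefSeq. Of 13840 genes 540 had several probes. Named genes were the 12 largest changes each way among called probes, and 6 each way for the contrast of day 5 with other ages. Such probes had a single symbol, a mean signal over that of the median probe, arrays that did not overlap and no difference shared by all ages. Up to 3 called members of each of 41 lists were also named, as was a list of genes from the study that left out most of its mitochondrial genes. Others were named after their values were seen. The comparison, lists and families were chosen with earlier results of these data known. The authors' t-test, other normalizations, an offset, a filter on dim probes, a block, a trend, pools as replicates and left-out arrays were alternatives.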

Additional observations from a re-analysis of the deposited data

Results flagged for a closer look

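Each result here is a difference between LON and Control that was not the same at day 5 as at the other ages, by the contrast of day 5 with the mean of days 10, 21, 56 and 112 in limma. Values are the log2 difference at day 5 less that mean, with the adjusted p.

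Skin and hair genes had the largest excess over the mean of the other ages. They were also high at day 10, with LON minus Control differences of 5.90 for Lor, 5.23 for Krt5, 4.47 for Krt25 and 4.51 for Prr9, at or above those of day 5 (5.26, 4.50, 4.19 and 4.46), and a median of 3.40 over the keratin-associated genes beside 2.57 at day 5. Keratin-associated genes were higher by 4.11 for Krtap19-3 (adjusted p = 2.85e-05), 3.72 for Krtap19-5 (adjusted p = 0.000196), 3.72 for Krtap16-3 (adjusted p = 0.00105), 3.31 for Krtap15 (adjusted p = 1.94e-05) and 3.06 for Krtap19-2 (adjusted p = 0.00657). Genes of the cell envelope were higher by 4.14 for Lce1c (adjusted p = 0.0329), 3.75 for Lce1g (adjusted p = 0.0443), 2.62 for Lor (adjusted p = 0.000341) and 3.27 for Prr9 (adjusted p = 0.0327). Keratins were higher by 3.21 for Krt25 (adjusted p = 0.000321), 2.31 for Krt15 (adjusted p = 0.0328) and 2.18 for Krt5 (adjusted p = 0.0395), and the desmosomal Perp by 3.73 (adjusted p = 3.53e-05).

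Among metabolic genes the excess was 1.86 for Acss2 (adjusted p = 1.94e-05), 1.62 for Me1 (adjusted p = 0.000906), 1.37 for Pmvk (adjusted p = 0.000144) and 1.16 for Dgat1 (adjusted p = 0.0229). Pdk4 stood at −1.27 (adjusted p = 0.000529).

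Lower at day 5 than the mean of the other ages were S100a9 (−1.41, adjusted p = 0.0034), S100a8 (−1.26, adjusted p = 0.000321), Retnlg (−1.59, adjusted p = 0.00127), Cd52 (−1.32, adjusted p = 0.0395), Nnat (−1.45, adjusted p = 0.0285) and Cpd (−1.34, adjusted p = 0.0395). At day 112 the LON minus Control difference was −2.33 for S100a9, below its −1.92 at day 5, and −1.51 for S100a8, beside −1.77. The muscle genes Pvalb (−2.51, adjusted p = 2.85e-05) and Myl1 (−1.24, adjusted p = 0.0395) belong to a list whose median difference was 3.61 at day 10 and −4.16 at day 112.

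Of the 30 fits of this contrast that each left out 1 array, 11 kept the call of Cpd, 12 that of Lce1g, 16 that of Cd52 and 25 those of Lce1c and Nnat, and all 30 kept those of Krtap19-3, Krtap19-5, Krtap16-3, Perp, Pvalb, Retnlg and S100a9. With pools as replicates, 0 of these 12 genes passed the threshold, and 1 of all 33012 probes was called in this contrast.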

How the results depend on the processing

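By probe, 351 were higher and 232 lower in LON at day 5, 94 differed from other ages, 96 were higher and 30 lower at all 5 ages, and 2161 differed between LON and LUN. Median scaling gave 807 higher and 129 lower, with 3 lower at all ages. Cyclic loess gave 453 lower and 198 that differed from other ages. Lower at all ages were 18 in the deposited values, 50 among probes above the median and 54 with an intensity trend, which gave 150 for the day 5 contrast. Fits of only the groups compared gave 131 higher, 11 lower and 338 between LON and LUN. Pools as replicates gave 23, 0 and, for the day 5 contrast, 1. Requiring an adjusted p at each age left 33 higher and 0 lower at all ages. The methods' t-test gave 2726 higher and 1734 lower unadjusted, and 112 and 43 after Benjamini-Hochberg. The causes were not tested.

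Without 1 array in turn, the counts ranged from 206 to 263 higher, 102 to 273 lower, 41 to 126 for the day 5 contrast, 85 to 110 higher and 20 to 36 lower at all ages, and 1483 to 2060 between LON and LUN. With the replicate number as a block they were 328, 217, 73, 94, 26 and 2093. Same-numbered Control and LON arrays of day 5 did not deviate together (r of 0.06, −0.01 and 0.01 across probes), so the numbers do not pair the arrays, and the block cost 7 of 90 named genes their call at day 5.

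Of 90 named genes, 86 kept their direction and side of the threshold in the deposited values, 68 under median scaling, 42 in the fit of 6 arrays and 21 with pools as replicates. A gene called in neither fit counts as kept. In the same order of settings, 4, 17, 48 and 67 genes lost their call. With pools as replicates no named gene was called. Reversals were in genes not called: under median scaling Adipor2 (0.10), Lep (0.30), Ppargc1a (0.077), Retn (0.31) and Vdr (−0.008), with an offset of 197.3 Vdr (−0.029), and with pools as replicates Adipor1 (−0.17) and Lep (0.41). Without 1 array, Adipor1 ranged from −0.086 to 0.097, Adipor2 from −0.57 to 0.21, Lep from −0.33 to 0.055, Ppargc1a from −0.59 to 0.25, Retn from −0.155 to 0.004 and Vdr from −0.38 to 0.66.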
